A study of Mus musculus with 8 samples.

Results

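Conjugating enzymes attach glutathione, glucuronic acid or sulfate to drugs, food compounds, bacterial products and the body's own lipids and hormones, which makes them more soluble and marks them for export. The genes described here are the 68 of 32285 genes in the count tables whose symbols begin with Gst and a class letter (alpha, kappa, mu, omega, pi, theta or zeta), Mgst, Ugt or Sult, followed by a number. They comprise 22 soluble glutathione transferases, 3 microsomal (membrane-bound) glutathione transferases, 22 UDP-glucuronosyltransferases and 21 sulfotransferases. The rule uses symbols and no measured value, though the families were picked with earlier results of these data known.

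Single-cell RNA sequencing (10x Genomics, 3' kit) was available for epithelial cells of mouse colon in 3 groups of 2 libraries, all from C57BL/6 mice, for which the study's methods give male animals of 6 to 12 weeks and name the libraries of a group biological replicates. Organoids were grown from isolated colon crypts in medium with a Wnt surrogate, the Wnt activator CHIR-99021, R-spondin 1 and noggin beside epidermal growth factor, the TGF-beta receptor inhibitor A83-01, B-27, N2 and N-acetylcysteine, a precursor of glutathione. Assembloids were made by embedding such organoids with cultured colon stromal cells in Matrigel on a shaker, in the same medium without the Wnt surrogate, CHIR-99021, R-spondin 1 and noggin. Tissue cells came from freshly isolated crypts, which were released with EDTA and the reducing agent dithiothreitol. All cells were freed with TrypLE, and assembloids were in addition digested with Liberase TL and DNase I, so that dissociation and culture medium cannot be told apart from the group. A further pair of libraries held stromal cells of assembloids. The study's methods give 4 to 5 days in that culture for mature assembloids in general, and no separate day for the sequenced ones.

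The epithelial libraries held 4305 to 28037 cells after filtering, with 36947714 to 187583982 unique molecular identifiers (UMIs, each standing for 1 captured mRNA molecule) per library and a median of 3392 to 35219 per cell. All 7 epithelial markers (Epcam, Cdh1, Krt8, Krt18, Krt19, Cldn3, Cldn7) were present in each library, with a summed level of 5819 to 12104 per 1000000 UMIs. The 13 stromal and immune markers summed to 329 and 88.4 per 1000000 UMIs in the assembloid libraries, against 0.944 and 1.40 in the organoid and 5.80 and 5.01 in the tissue libraries. Cells were kept by these same markers, so the sums are no independent check of purity. Of cells within the limits on genes and mitochondrial UMIs, this step removed 4.67% and 9.91% in assembloids. In organoids it removed 0% and 0.274%, and in tissue 0.0853% and 0.116%. Between 6 and 69 cell barcodes were shared by any pair of libraries. Replicates differed far beyond counting error (chi-square divided by the number of genes 24.2, 307 and 401 for tissue, assembloids and organoids). Tests therefore rest on UMIs summed per library.

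Levels are given as counts per 1000000 of a library's UMIs (CPM), scaled by the trimmed mean of M-values (TMM), and differences as log2 ratios ± standard error from the quasi-likelihood test of edgeR with Benjamini-Hochberg adjustment over all genes tested. A gene is called at an adjusted p under 0.05. Because the kit reads the 3' end of each mRNA, a level is a number of molecules and does not scale with gene length. In sums over whole libraries, fewer cells of a type and less mRNA per cell cannot be told apart.

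The enzymes took 0.328% and 0.334% of all UMIs in tissue, 0.157% and 0.231% in assembloids and 0.154% and 0.112% in organoids. Soluble glutathione transferases summed to a like level in all groups, with 1322 ± 269 CPM in assembloids, 1135 ± 434 in organoids and 1134 ± 15.3 in tissue (mean ± SD, n = 2 libraries). The other families stood highest in tissue and lowest in organoids. Microsomal glutathione transferases summed to 1078 ± 115 CPM in tissue, 648 ± 71.2 in assembloids and 205 ± 91.8 in organoids (SD, n = 2). Sulfotransferases reached 512 ± 24.4 in tissue against 146 ± 21.8 in assembloids and 23.9 ± 4.88 in organoids (SD, n = 2). UDP-glucuronosyltransferases were at 153 ± 4.08 in tissue, 38.0 ± 8.95 in assembloids and 30.9 ± 0.708 in organoids (SD, n = 2).

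Of the 68 genes, 44 had enough UMIs to be tested and 9 had no UMI in any epithelial library. The 24 genes left out of the tests stayed at or below 0.128 CPM, and 12 tested genes never exceeded 2.58. The remaining 32 are described below by their levels or their differences between groups. All 22 soluble glutathione transferases and all 3 microsomal ones were tested, but only 11 of 22 UDP-glucuronosyltransferases and 8 of 21 sulfotransferases.

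Between assembloids and tissue, 5 of the 44 tested enzymes were higher and 19 lower in assembloids, which is 54.5% called against 50.6% of all 19354 genes tested. The share called was thus near the background. By direction, 27.2% of all genes were called higher and 23.4% lower. The median log2 difference of the enzymes was -0.88 against 0.03 over all genes. Between organoids and tissue, 3 enzymes were higher and 23 lower in organoids, against 47.5% of all genes called (24.4% higher, 23.1% lower), and the median was -1.34 against 0.06. Between organoids and assembloids, 3 were higher and 16 lower in organoids, against 54.2% of all genes called (24.9% higher, 29.3% lower), and the median was -0.54 against -0.02. The comparisons share libraries and are not independent of each other. Scaling by total UMIs in place of TMM moved the median over all genes by -0.37 between assembloids and tissue, by -0.22 between organoids and tissue and by 0.13 between organoids and assembloids. With that scaling, the enzymes called between assembloids and tissue were 5 higher and 27 lower.

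**Figure D1:**
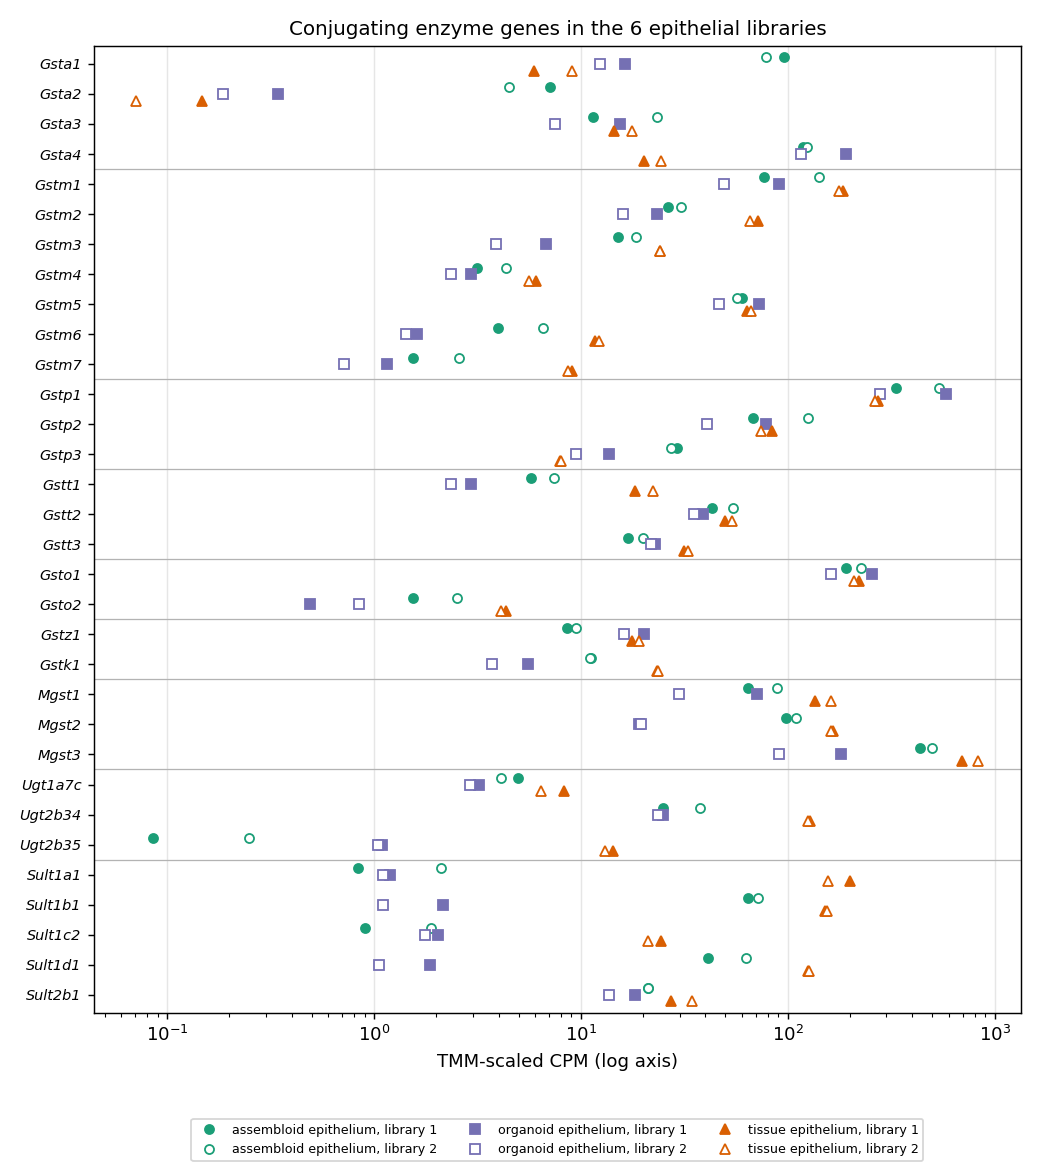
Level of the 32 named enzyme genes in each of the 6 epithelial libraries, as TMM-scaled CPM on a log axis, with grey lines between classes. Circles are assembloids, squares organoids and triangles tissue, filled for library 1 and open for library 2. Sult1b1 and Sult1d1 fall into 3 separate steps, with tissue at 126 to 155, assembloids at 41.3 to 71.8 and organoids at 1.06 to 2.15 CPM.

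Alpha class glutathione transferases detoxify lipid peroxides and other electrophiles. Of the 4 genes of this class, 3 were higher in assembloids than in tissue and 2 in organoids, against 27.2% and 24.4% of all genes higher. Gsta1 (chr9:78230656-78242684, plus strand, GRCm38) was at 95.7 and 78.1 CPM in assembloids, 16.3 and 12.4 in organoids, with tissue at 5.96 and 9.08. The groups did not overlap, and Gsta1 was 11.6-fold higher in assembloids than in tissue (log2 3.53 ± 0.28, adjusted p = 3.9e-05) and 6.05-fold lower in organoids than in assembloids (adjusted p = 0.00015). Organoids exceeded tissue by 1.92-fold (adjusted p = 0.016), a call that was lost without organoid library 1 (adjusted p = 0.0806) or tissue library 1 (adjusted p = 0.187).

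The near-identical neighbour Gsta2 (chr9:78331018-78355788, minus strand) followed at a lower level, with 7.11 and 4.50 CPM in assembloids, 0.344 and 0.187 in organoids, with tissue at 0.147 and 0.0711. Assembloids were 51.3-fold higher than tissue (log2 5.68 ± 0.55, adjusted p = 0.0001). Of all stretches of 50 bases in the last 400 bases of Gsta1 transcripts, 87.2% also occurred in another gene, among them Gsta2 and the unnamed neighbours Gm3776 and Gm10639, and for Gsta2 the share was 55.7%. How reads that match several copies were counted is not given in the sources used here, so the split between these copies is uncertain. Assembloids exceeded tissue in both neighbours as well, Gm3776 by 3.65 ± 0.36 (adjusted p = 0.00012) and Gm10639 by 2.88 ± 0.52 (adjusted p = 0.0022) on the log2 scale.

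Gsta1 and Gsta2 were both higher in assembloids than in tissue and in organoids over whole libraries, so the sequence around their starts is shown. The stretches run 5′ to 3′ on the gene's strand, from 250 bases before the start to 20 bases after it, and come from RefSeq on GRCm38.p6 (Gsta1 chr9:78230419-78230688, plus strand; Gsta2 chr9:78347126-78347395, minus strand). Capitals mark GCGTG, the core bound by the aryl hydrocarbon receptor with its partner Arnt, searched on both strands.
Gsta1: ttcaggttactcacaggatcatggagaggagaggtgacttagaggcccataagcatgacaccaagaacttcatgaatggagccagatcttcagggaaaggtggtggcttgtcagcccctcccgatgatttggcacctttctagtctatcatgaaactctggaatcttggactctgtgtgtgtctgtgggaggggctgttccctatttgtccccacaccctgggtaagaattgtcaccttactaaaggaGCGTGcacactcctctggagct
Gsta2: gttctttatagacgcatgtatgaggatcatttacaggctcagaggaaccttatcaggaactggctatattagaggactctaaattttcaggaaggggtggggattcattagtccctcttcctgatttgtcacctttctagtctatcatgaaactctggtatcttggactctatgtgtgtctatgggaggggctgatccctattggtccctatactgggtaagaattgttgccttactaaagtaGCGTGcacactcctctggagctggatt
The stretches shown of Gsta1 and Gsta2 aligned with 73.4% identity. Motifs were searched over 300 bases (250 before to 50 after the start). Each of the 2 genes held 1 GCGTG close to the RefSeq start, which begins 2 bases before it in Gsta1 and 7 bases before it in Gsta2. The gene positions given further above come from GENCODE, whose starts differ. That of Gsta1, at 78230656, lies before the marked GCGTG, and that of Gsta2, at 78355788, lies outside the window shown. GCGTG occurred in 32.4% of all 32851 promoter windows of that length in RefSeq and in 15 of the 72 windows found for 60 of the enzymes. TGACNNNGC, the core of the antioxidant response element bound by Nfe2l2, occurred in 12.4% of all windows and in 4 of the 72, namely those of Gsta3, Gstm5, Gstm7 and Mgst1. Such matches are descriptions of letters and no evidence of binding.

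Gsta4, which conjugates the lipid peroxidation product 4-hydroxynonenal, was high in both cultures. It was at 118 and 124 CPM in assembloids, 191 and 116 in organoids, with tissue at 20.1 and 24.4. Both cultures lay above tissue in every library, 5.45-fold in assembloids (log2 2.45 ± 0.28, adjusted p = 0.00024) and 6.90-fold in organoids (log2 2.79 ± 0.29, adjusted p = 0.00012). Organoids and assembloids overlapped (log2 0.34 ± 0.27, adjusted p = 0.3). Gsta3 lay between 7.5 and 23.5 CPM in all libraries and was not called in any of these comparisons.

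Mu class enzymes form the largest class in this epithelium by number of genes. Of its 7 genes, 3 were lower in assembloids than in tissue and 6 lower in organoids than in tissue, and no mu gene was called higher in either, against 50.6% and 47.5% of all genes called (23.4% and 23.1% lower). Gstm2 was at 26.4 and 30.4 CPM in assembloids, 23.4 and 16.1 in organoids, with tissue at 72.0 and 66.0. Tissue stood above both cultures without overlap, 2.43-fold above assembloids (adjusted p = 0.002) and 3.49-fold above organoids (adjusted p = 0.00036). Gstm7 differed most, by -2.10 ± 0.35 in assembloids (adjusted p = 0.0015) and -3.23 ± 0.37 in organoids (adjusted p = 0.00021) on the log2 scale against 9.04 and 8.65 CPM in tissue. Gstm6 was lower by -1.18 ± 0.28 in assembloids (adjusted p = 0.0081) and -2.97 ± 0.30 in organoids (adjusted p = 0.00011), and its call in assembloids was lost without tissue library 2 (adjusted p = 0.0524) and at no more than 20% mitochondrial UMIs (adjusted p = 0.0567). Part of its 3' end, 13.3% of the stretches, occurs in other genes too, as do 24.1% of those of Gstm1 and 24.9% of those of Gstt3, so their counts are uncertain to that extent.

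Gstm1, at 186 and 176 CPM in tissue, was at 77.0 and 142 in assembloids and at 90.9 and 49.4 in organoids. It was 2.58-fold lower in organoids than in tissue (adjusted p = 0.014), a call lost without organoid library 2 (adjusted p = 0.0815), tissue library 1 (adjusted p = 0.0703) or tissue library 2 (adjusted p = 0.0561) and at no more than 20% mitochondrial UMIs (adjusted p = 0.053), and it was not called between assembloids and tissue. Gstm3 was lower in organoids than in tissue (log2 -2.18 ± 0.28, adjusted p = 0.00038) and than in assembloids (log2 -1.65 ± 0.28, adjusted p = 0.0014). Gstm4 reached 6.05 and 5.64 CPM in tissue and was lower in organoids by -1.15 ± 0.28 (adjusted p = 0.0097), which was lost without organoid library 2 (adjusted p = 0.0541), tissue library 1 (adjusted p = 0.0745) or tissue library 2 (adjusted p = 0.0509). Gstm5 lay between 46.7 and 73.0 CPM in all 6 libraries and was called in none of the 3 comparisons.

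Of the pi class, Gstp1 had the highest level of all soluble glutathione transferases in each of the 6 libraries. It was at 335 and 536 CPM in assembloids, 580 and 279 in organoids, with tissue at 274 and 264. The cultures varied widely between replicates, and the difference between assembloids and tissue was not called (log2 0.70 ± 0.38, adjusted p = 0.16). Gstp2 was at 68.2 and 125 CPM in assembloids, 78.1 and 40.7 in organoids, with tissue at 83.8 and 74.5. The groups overlapped, and Gstp2 was called in none of the 3 comparisons (assembloid against tissue log2 0.28 ± 0.36, adjusted p = 0.53, organoid against tissue log2 -0.41 ± 0.36, adjusted p = 0.37). Of the 3' stretches, 78.3% of those of Gstp1 and 63.1% of those of Gstp2 occur in other genes, so these copies cannot be separated with certainty. Gstp3 was at 29.2 and 27.4 CPM in assembloids, 13.7 and 9.46 in organoids, with tissue at 7.92 and 8.06. Assembloids lay above the other groups without overlap, 3.54-fold above tissue (adjusted p = 0.00033), while organoids were 2.44-fold below assembloids (adjusted p = 0.0015).

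Among the remaining soluble classes, tissue was mostly highest. Gstt1 was at 18.3 and 22.2 CPM in tissue, 5.71 and 7.45 in assembloids and 2.93 and 2.37 in organoids, so that all 3 groups were apart. It was 3.08-fold lower in assembloids (adjusted p = 0.00076) and 7.64-fold lower in organoids (adjusted p = 4.5e-05) than in tissue. Gstk1, found in mitochondria and peroxisomes, showed the same order, with 23.3 and 23.5 CPM in tissue, 11.2 and 11.1 in assembloids and 5.53 and 3.71 in organoids (assembloid against tissue log2 -1.07 ± 0.23, adjusted p = 0.0049, organoid against tissue log2 -2.34 ± 0.24, adjusted p = 0.00011). Gstz1, which isomerizes maleylacetoacetate in the breakdown of tyrosine, was low in assembloids alone, at 8.54 and 9.44 CPM against 20.1 and 16.1 in organoids and 17.7 and 19.1 in tissue. It was 2.05-fold lower than in tissue (adjusted p = 0.003), and organoids were 2.02-fold above assembloids (adjusted p = 0.0029).

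Gsto1, an omega class enzyme that reduces dehydroascorbate, was between 162 and 256 CPM in every library and was not called (assembloid against tissue log2 -0.04 ± 0.27, adjusted p = 0.92). Gstt2 was likewise called nowhere, between 35.3 and 54.2 CPM. Gsto2 was lower in both cultures (log2 -1.07 ± 0.38, adjusted p = 0.043 in assembloids and -2.68 ± 0.40, adjusted p = 0.00086 in organoids), but in assembloids not without assembloid library 1 (adjusted p = 0.153), tissue library 1 (adjusted p = 0.158), tissue library 2 (adjusted p = 0.124) or the 5% of cells with the most UMIs (adjusted p = 0.0678). Gstt3 was 1.75-fold lower in assembloids (adjusted p = 0.0063) and 1.44-fold lower in organoids (adjusted p = 0.039) than in tissue. These calls were lost without either tissue library, with adjusted p = 0.0546 and 0.0681 in assembloids and 0.194 and 0.245 in organoids. The organoid call was also lost without any 1 of organoid library 1, organoid library 2 and assembloid library 2 (adjusted p = 0.0578, 0.0718 and 0.0534), under the replicate block (adjusted p = 0.0519), without the filter on low counts (adjusted p = 0.109), without the 5% of cells with the most UMIs (adjusted p = 0.058) and at no more than 20% mitochondrial UMIs (adjusted p = 0.224). The assembloid call was lost without assembloid library 1 (adjusted p = 0.0566) and at no more than 20% mitochondrial UMIs (adjusted p = 0.0548).

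The microsomal glutathione transferases sit in membranes, where Mgst1 reduces lipid peroxides, while Mgst2 and Mgst3 can also make leukotriene C4. Mgst3 was the most abundant of all the enzymes in tissue, with 697 and 835 CPM, against 435 and 500 in assembloids and 180 and 90.9 in organoids. It was 5.66-fold lower in organoids than in tissue (log2 -2.50 ± 0.36, adjusted p = 0.00068) and 3.45-fold lower than in assembloids (adjusted p = 0.003). The step between assembloids and tissue, without overlap of the libraries, was not called (log2 -0.71 ± 0.34, adjusted p = 0.11). Mgst2 showed the same order, with 165 and 162 CPM in tissue, 98.2 and 110 in assembloids and 19.1 and 19.6 in organoids. Organoids were 8.47-fold below tissue (adjusted p = 1.7e-05) and 5.38-fold below assembloids (adjusted p = 7.1e-05). Assembloids were 1.57-fold below tissue (adjusted p = 0.022), which was lost without any 1 of the assembloid and tissue libraries (adjusted p = 0.0572 to 0.164) and at no more than 20% mitochondrial UMIs (adjusted p = 0.139).

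Mgst1 was at 135 and 162 CPM in tissue, 64.5 and 89.2 in assembloids and 70.9 and 29.8 in organoids. It was 2.95-fold lower in organoids than in tissue (adjusted p = 0.0098, and 0.0561 without tissue library 2), while assembloids missed the threshold (log2 -0.95 ± 0.38, adjusted p = 0.064). The stromal libraries held Mgst1 at 564 and 579 CPM (without TMM scaling), Gstm2 at 116 and 147 and Gstm5 at 112 and 117, above every epithelial library. Stromal markers were higher in the assembloid libraries than in the others (above), and their part in these values was not tested.

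**Figure D2:**
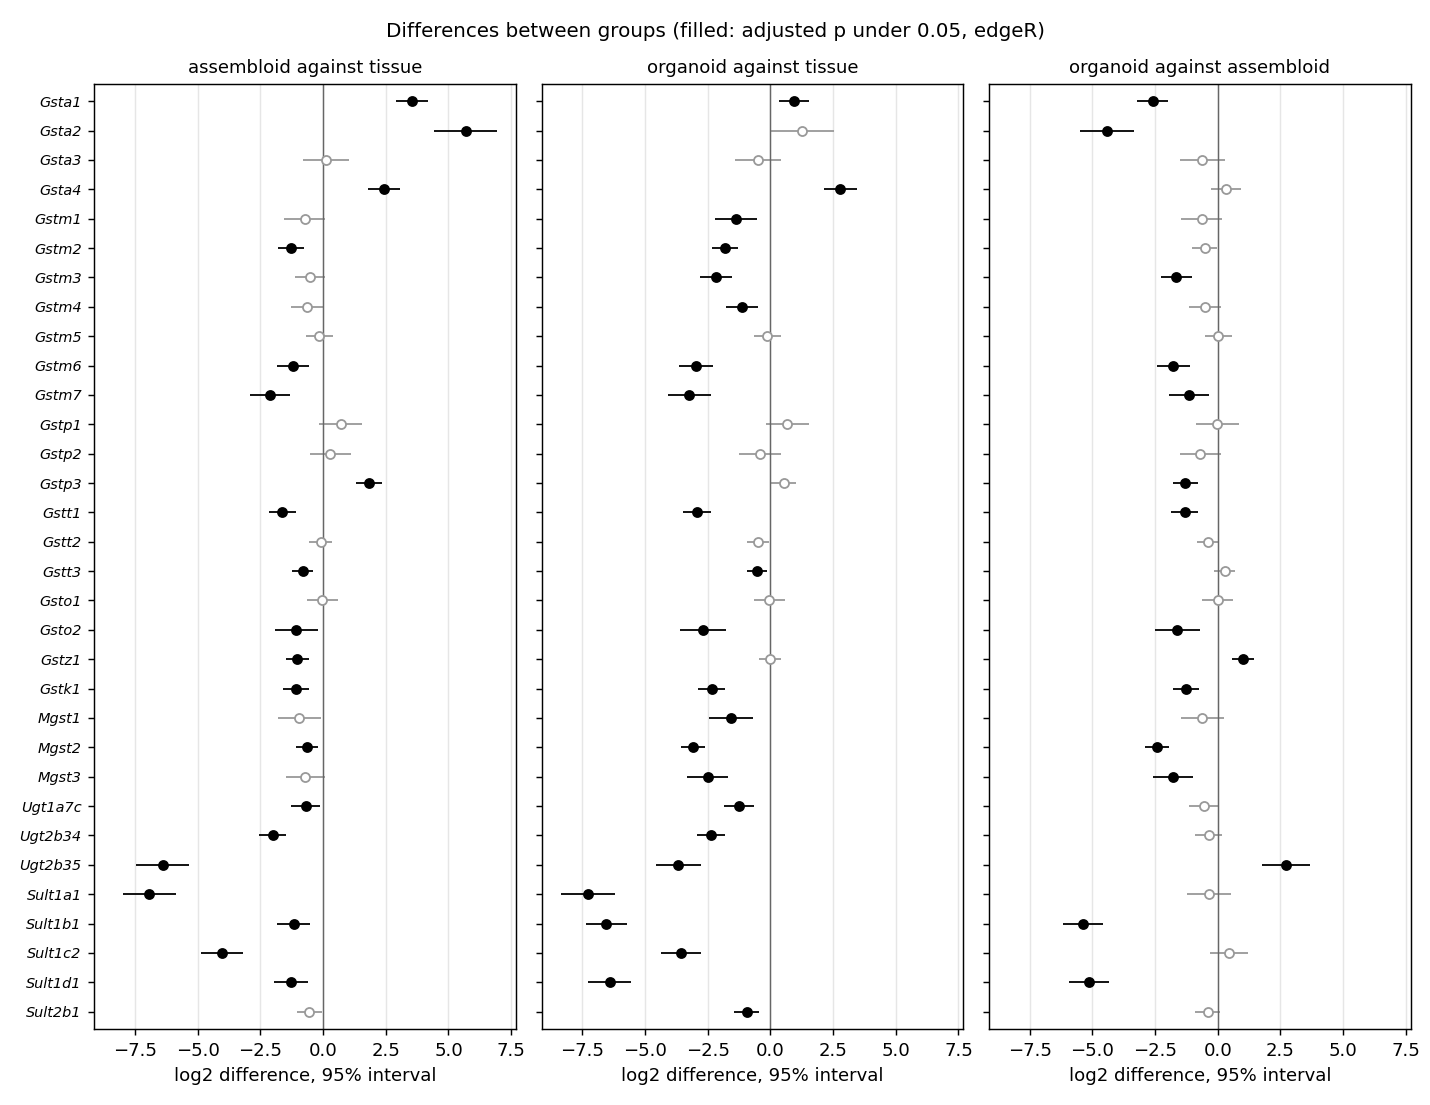
Differences between groups of the 32 named enzyme genes on the log2 scale, with 95% intervals, in the 3 comparisons of the library sums. Filled black points have an adjusted p under 0.05 and open grey points do not. Sult1a1 lies at -6.94 and -7.28 in assembloids and organoids against tissue, whereas Sult1b1 and Sult1d1 lie at -1.17 and -1.28 in assembloids and at -6.54 and -6.41 in organoids.

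UDP-glucuronosyltransferases are enzymes of the endoplasmic reticulum, most of which transfer glucuronic acid from UDP-glucuronate. The symbol rule also took in Ugt8a, which makes galactosylceramide and is among the tested genes, and Ugt3a1 and Ugt3a2, which use other UDP sugars and were not tested. In assembloids 6 of 11 tested genes (54.5%) were lower than in tissue and in organoids 5 of 11 (45.5%), and none was higher in either, against 50.6% and 47.5% of all genes called (23.4% and 23.1% lower). Ugt2b34 (chr5:86889767-86906937, minus strand) carried most of the UMIs counted for the family, with 128 and 125 CPM in tissue, 24.8 and 37.7 in assembloids and 25 and 23.6 in organoids. Both cultures were below tissue, 4.05-fold in assembloids (adjusted p = 0.00028) and 5.20-fold in organoids (adjusted p = 0.00012), and the cultures themselves overlapped. Its neighbour Ugt2b35 (chr5:87000860-87013275, plus strand) was at 14.3 and 13.1 CPM in tissue, 1.10 and 1.05 in organoids and 0.0857 and 0.248 in assembloids. Here assembloids were the lowest group, 84.3-fold below tissue (log2 -6.40 ± 0.46, adjusted p = 2.7e-05), and organoids were 6.62-fold above assembloids (adjusted p = 0.001).

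The genes of the Ugt1 locus share their last exons, and 50% of the 3' stretches of Ugt1a7c and 98.3% to 100% of those of the other Ugt1a genes occur in other genes of the locus, so these counts cannot be assigned to single genes with certainty. How reads that match several of these genes were counted is not given in the sources used here. The level of the whole locus, and its part in the family's sum, is therefore uncertain too. Ugt1a7c was at 8.25 and 6.40 CPM in tissue, 4.95 and 4.11 in assembloids and 3.23 and 2.90 in organoids. It was 1.62-fold lower in assembloids (adjusted p = 0.049), which was lost without any 1 of the assembloid and tissue libraries (adjusted p = 0.0563 to 0.326), without the filter on low counts (0.0692), at no more than 5% mitochondrial UMIs (0.243) and without the 5% of cells with the most UMIs (0.0825). It was 2.39-fold lower in organoids (adjusted p = 0.0042, and 0.0605 without tissue library 1). The other genes called lower in assembloids, Ugt1a6a, Ugt2b36 and Ugt2b5, stayed under the level at which genes are described and are named after their values were seen.

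Sulfotransferases are cytosolic enzymes that use PAPS as sulfate donor. Of 8 tested, 1 was higher and 4 were lower in assembloids than in tissue, and 1 was higher and 5 lower in organoids, against 23.4% and 23.1% of all genes lower. Sult1a1 (chr7:126672865-126676432, minus strand), which sulfates phenols, was at 201 and 157 CPM in tissue, 0.836 and 2.11 in assembloids and 1.19 and 1.10 in organoids. Both cultures were near 0 beside tissue, 123-fold lower in assembloids (log2 -6.94 ± 0.46, adjusted p = 2e-05) and 156-fold lower in organoids (log2 -7.28 ± 0.47, adjusted p = 1.2e-05). The cultures overlapped each other (log2 -0.35 ± 0.39, adjusted p = 0.47). Sult1c2 behaved alike at a lower level, with 24.3 and 21 CPM in tissue, 0.9 and 1.89 in assembloids and 2.03 and 1.77 in organoids. It was 16.3-fold lower in assembloids (adjusted p = 7.1e-05) and 11.9-fold lower in organoids (adjusted p = 9.5e-05).

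Sult1b1 and Sult1d1, neighbours on chromosome 5, stood well above 0 in assembloids but not in organoids. Sult1b1 (chr5:87513339-87538195, minus strand), which acts on thyroid hormones and phenols, was at 151 and 155 CPM in tissue, 64.4 and 71.8 in assembloids and 2.15 and 1.11 in organoids. Sult1d1 (chr5:87554645-87569027, minus strand), which acts on catecholamines, was at 126 and 126 in tissue, 41.3 and 62.6 in assembloids and 1.87 and 1.06 in organoids. For each gene the 3 groups were fully apart. Organoids were 92.9-fold below tissue for Sult1b1 (log2 -6.54 ± 0.36, adjusted p = 6.8e-06) and 85.0-fold for Sult1d1 (log2 -6.41 ± 0.37, adjusted p = 8.1e-06). They were also 41.4-fold and 35.1-fold below assembloids (adjusted p = 2.5e-05 and 3.1e-05).

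Assembloids were 2.24-fold below tissue for Sult1b1 (log2 -1.17 ± 0.29, adjusted p = 0.0095) and 2.42-fold for Sult1d1 (log2 -1.28 ± 0.30, adjusted p = 0.0074). The first call was lost without assembloid library 1 (adjusted p = 0.0554) or tissue library 2 (adjusted p = 0.0525) and at no more than 20% mitochondrial UMIs (adjusted p = 0.0587), and the second without assembloid library 1 (adjusted p = 0.0547). Sult2b1, which sulfates cholesterol, differed less, with 27.2 and 34.6 CPM in tissue, 21.2 and 21 in assembloids and 18.2 and 13.8 in organoids. Only the organoid difference was called (log2 -0.95 ± 0.21, adjusted p = 0.0066, and 0.0918 without tissue library 2). The single sulfotransferase called higher in assembloids than in tissue was Sult4a1, which stayed under the level at which genes are described.

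Sult1b1 and Sult1d1 lie next to each other, whereas Sult1a1 on chromosome 7 differs from them between the cultures, and their starts are shown for comparison with the same limits, source and capitals as above. Sult1b1 has 2 annotated starts (chr5:87538176-87538445 and chr5:87536203-87536472), Sult1d1 1 (chr5:87568987-87569256) and Sult1a1 1 (chr7:126676399-126676668), all on the minus strand.
Sult1b1, start 1: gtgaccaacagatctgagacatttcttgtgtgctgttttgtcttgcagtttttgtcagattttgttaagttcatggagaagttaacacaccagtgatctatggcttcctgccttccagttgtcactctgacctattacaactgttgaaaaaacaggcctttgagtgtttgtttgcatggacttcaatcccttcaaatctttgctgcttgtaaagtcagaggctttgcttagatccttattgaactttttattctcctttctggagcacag
Sult1b1, start 2: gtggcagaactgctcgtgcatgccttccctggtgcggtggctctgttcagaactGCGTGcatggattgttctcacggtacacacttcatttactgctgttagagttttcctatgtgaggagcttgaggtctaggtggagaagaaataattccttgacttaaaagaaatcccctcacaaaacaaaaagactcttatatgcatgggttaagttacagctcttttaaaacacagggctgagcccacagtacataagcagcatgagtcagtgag
Sult1d1: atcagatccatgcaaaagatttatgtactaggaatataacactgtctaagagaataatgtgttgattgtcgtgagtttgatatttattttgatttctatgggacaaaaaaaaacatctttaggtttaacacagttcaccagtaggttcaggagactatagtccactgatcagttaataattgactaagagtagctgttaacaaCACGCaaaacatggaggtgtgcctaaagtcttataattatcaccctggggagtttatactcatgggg
Sult1a1: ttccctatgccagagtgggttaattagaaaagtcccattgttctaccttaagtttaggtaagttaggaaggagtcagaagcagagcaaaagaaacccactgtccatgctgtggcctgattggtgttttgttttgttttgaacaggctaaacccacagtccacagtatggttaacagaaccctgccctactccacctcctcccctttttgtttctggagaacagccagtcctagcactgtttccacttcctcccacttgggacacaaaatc
The windows of Sult1b1 and Sult1d1 aligned with 52.4% and 50.6% identity, well below the 73.4% of Gsta1 and Gsta2. GCGTG was found 196 bases before the second start of Sult1b1 and, on the opposite strand, 47 bases before that of Sult1d1, and not in the windows of the first Sult1b1 start and of Sult1a1. TGACNNNGC was found in none of these 4 windows.

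Cells with a marker in common were compared between groups in marker gates. Krt20 marks surface colonocytes, Lgr5 crypt stem cells, and 6 products (Muc2, Zg16, Clca1, Fcgbp, Spink4, Tff3) goblet cells, and none of these is a conjugating enzyme. A cell was placed in the Krt20 or the Lgr5 gate with at least 1 UMI of the marker and at least 200 CPM within the cell, and in the goblet gate when the 6 products made up at least 1% of its UMIs. At 200 CPM, deep cells needed more marker UMIs to enter than shallow ones. Cells in the Lgr5 gate had median depths of 7296 (tissue library 2) to 33153 UMIs (organoid library 1), except for 3087.5 in assembloid library 1. In the Krt20 gate that library had a median of 3658, while assembloid library 2 and both tissue libraries lay between 13373 and 16331. The part of this depth in the gate values was not tested beyond the alternative limits and UMI settings run. The Krt20 gate held 4792 and 1076 assembloid cells and 349 and 488 tissue cells, the goblet gate 1044 and 413 against 2758 and 2266, and the Lgr5 gate 288 and 65 against 98 and 63. Organoids had 8 and 4 cells in the Krt20 gate and 27 and 26 in the goblet gate, too few to be used, but 1063 and 2788 in the Lgr5 gate.

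The gates were enriched for their cells but not pure. Guca2a, a peptide of differentiated colonocytes, was at 6965 and 6628 CPM in the tissue Krt20 gate, 865 and 861 in the goblet gate and 83.6 and 162 in the Lgr5 gate. In assembloids Guca2a was higher in the goblet gate (374 and 696 CPM) than in the Krt20 gate (293 and 515). The colonocyte marker Aqp8 was at 121 and 177 in their Krt20 gate and 11.3 and 5.32 in their goblet gate. Mki67, a marker of cycling cells, was at 80.3 and 31.2 CPM in the assembloid Krt20 gate and 11.2 and 11.9 in that of tissue. Car4, a surface carbonic anhydrase, was at 1231 and 717 CPM in the tissue Krt20 gate but at 12.3 and 8.77 in that of assembloids, whereas Car1, another colonocyte carbonic anhydrase, was at 2684 and 3004 in tissue and 5195 and 10701 in assembloids. In the Lgr5 gate the crypt-base marker Smoc2 was at 194 and 194 CPM in tissue and 11.2 and 7.31 in assembloids, and Rgmb at 159 and 118 against 11.9 and 21.9. A gate thus holds cells with 1 marker in common whose other markers differed between groups. The tissue goblet gate took in 58.8% and 52.6% of cells with a median of only 1124 and 1917 UMIs. At a limit of 3% it held 11.9% and 12.4% of cells with medians of 17424 and 15684. Free mRNA in the droplets was not measured, and its part in the values below was not tested. Higher gate limits and a minimum of 2000 UMIs per cell were run as alternatives.

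Within tissue, 18 of the 35 enzymes tested were higher and 3 lower in the Krt20 gate than in the Lgr5 gate (60.0%, against 46.0% of all 14923 genes called, 26.6% higher and 19.4% lower). Within assembloids 18 were higher and 1 lower, against 29.1% of all genes (19.9% higher, 9.22% lower). With total UMIs as the scale, which moved the median over all genes by -0.74 in assembloids and -0.68 in tissue, the counts were 13 higher and 3 lower in assembloids and 15 higher and 3 lower in tissue.

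Sult1b1 had the largest step between these gates. In tissue it was at 640 and 502 CPM in the Krt20 gate, 37.3 and 46.7 in the goblet gate and 16.8 and 18.1 in the Lgr5 gate, and in assembloids at 196 and 284, 31.4 and 20.4, and 16.4 and 13.4. The Krt20 gate exceeded the Lgr5 gate 33.0-fold in tissue (adjusted p = 2e-06) and 15.7-fold in assembloids (adjusted p = 0.00012). Sult1d1 rose from the Lgr5 to the Krt20 gate by 12.0-fold in tissue (adjusted p = 9.1e-06) and 11.1-fold in assembloids (adjusted p = 0.00019). For neither gene was the step called different between assembloids and tissue (adjusted p = 0.25 and 0.95).

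Mgst3 rose 23.2-fold from the Lgr5 to the Krt20 gate in tissue and 6.72-fold in assembloids (adjusted p = 3.3e-06 and 0.00022). It reached 2498 and 2454 CPM in the tissue Krt20 gate and 873 and 1318 in that of assembloids, but only 105 and 109 against 216 and 106 in the Lgr5 gate. The step was smaller in assembloids by -1.79 ± 0.42 on the log2 scale (adjusted p = 0.029). Mgst1 rose 3.85-fold in tissue, from 86.2 and 91.8 to 316 and 376 CPM, whereas it was at 44.8 and 81.6 in the Lgr5 gate and 54.2 and 79.8 in the Krt20 gate of assembloids. The steps differed by -1.83 ± 0.28 (adjusted p = 0.0045). Gstt1 showed a like pattern, with 35.4 and 46.5 CPM in the tissue Krt20 gate and 5.22 to 7.67 in all other Lgr5 and Krt20 gates (difference of the steps -2.31 ± 0.49, adjusted p = 0.018). Its values in the Lgr5 gate rest on 7 and 6 UMIs in assembloids and 14 and 5 in tissue.

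The steps of 5 of 35 enzymes differed between assembloids and tissue, against 7.83% of all genes called (4.54% higher, 3.29% lower). The rise to the Krt20 gate was smaller in assembloids for Mgst3, Mgst1, Gstt1 and Gstp2. For Gstm1 the difference was positive. Its mean fell in tissue from 127 CPM in the Lgr5 gate to 65.7 in the Krt20 gate. In assembloids these means were 77.3 and 83.5. The call for Gstp2 was lost in gated cells of at least 2000 UMIs (adjusted p = 0.063) and without the 5% of cells with the most UMIs (adjusted p = 0.088). Without assembloid library 1 there were 3 such calls. Without tissue library 1 or tissue library 2 there was none, but calls over all genes also fell from 1169 to 0 and 301, and the adjusted p of these genes was lowest for Mgst1 (0.0777) and highest for Gstp2 (0.449). Gstm1 was lower in the Krt20 than in the Lgr5 gate of tissue (1.93-fold, adjusted p = 0.00058), as was Gsta3 (4.37-fold, adjusted p = 0.00054). Ugt2b35 was also highest in the tissue Lgr5 gate, with 30.0 and 27.2 CPM against 4.70 and 5.18 in the Krt20 gate and 15.2 and 14.7 in the goblet gate (5.80-fold lower in the Krt20 gate, adjusted p = 0.00011).

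**Figure D3:**
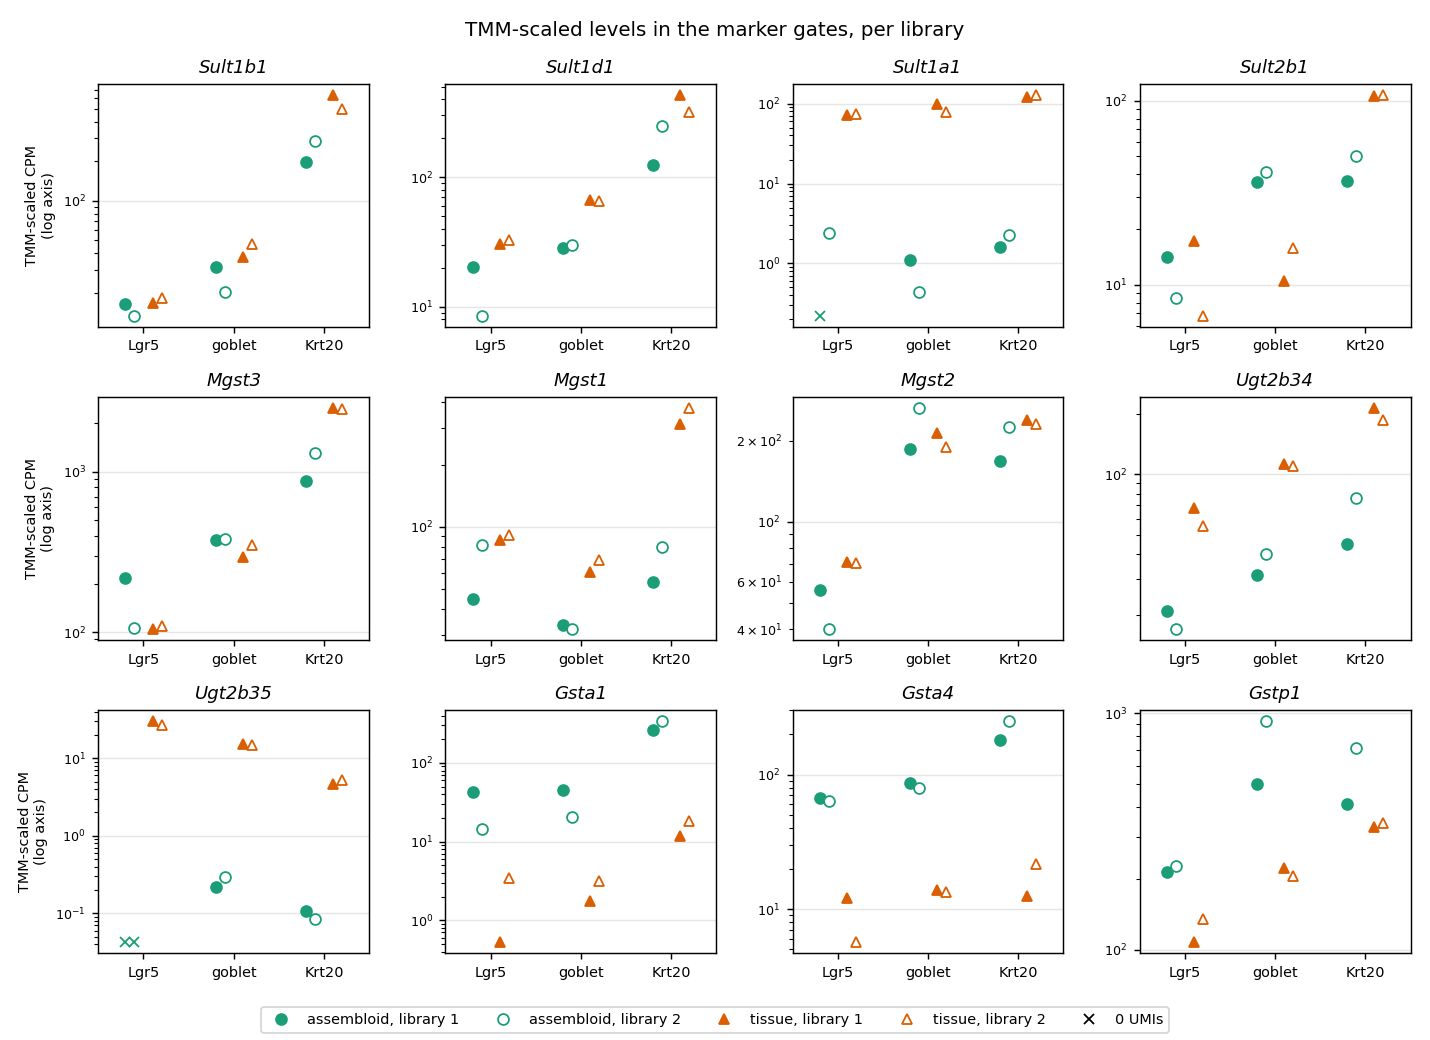
TMM-scaled CPM (log axis, own range in each panel) of 12 enzyme genes in the Lgr5, goblet and Krt20 gates of each assembloid library (circles) and tissue library (triangles), filled for library 1 and open for library 2. Crosses at the bottom are libraries with 0 UMIs. Cells in no gate are not shown. Sult1b1 and Mgst3 are highest in the Krt20 gate of both groups, while Sult1a1 is at 71.5 to 130 in every tissue gate and at most 2.44 in assembloids.

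In the Krt20 gate itself, 5 of 36 enzymes were higher and 14 lower in assembloids than in tissue (52.8%, against 44.8% of 13446 genes called, 24.3% higher and 20.5% lower). These were 3 and 7 without tissue library 1 and 4 and 8 without tissue library 2, while calls over all genes fell from 6023 to 2244 and 2714. Sult1a1 was at 120 and 130 CPM in tissue and 1.60 and 2.30 in assembloids (log2 -6.00 ± 0.24, adjusted p = 0.00012). Most Sult1a1 UMIs of tissue lay outside the gates. In tissue library 1 the Krt20, goblet and Lgr5 gates held 664, 1650 and 136 of 10944, and in tissue library 2 776, 1188 and 66 of 6643. Mgst1 was 5.09-fold lower in assembloids (adjusted p = 0.00092), Mgst3 2.23-fold (adjusted p = 0.01), Ugt2b34 3.25-fold (adjusted p = 0.0037) and Sult2b1 2.43-fold (adjusted p = 0.0036). The Mgst3 call was lost without tissue library 1 (adjusted p = 0.0937) or tissue library 2 (adjusted p = 0.0883). Sult1b1 was 2.34-fold lower (adjusted p = 0.0079), but not without tissue library 1 (adjusted p = 0.086), and Sult1d1 missed the threshold (adjusted p = 0.052).

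Of the enzymes that were higher in assembloids, Gsta1 was at 265 and 338 CPM in their Krt20 gate against 11.9 and 18.4 in that of tissue (20.1-fold, adjusted p = 0.00024). Gsta4 was 12.7-fold (adjusted p = 0.00058) and Gstp3 5.35-fold higher (adjusted p = 0.00062). Gsta1 was 10.5-fold higher in the Krt20 gate than in the Lgr5 gate of assembloids (adjusted p = 0.00022) and was higher there in tissue too (adjusted p = 0.011), where the Lgr5 gate held 1 and 3 UMIs and the call was lost without tissue library 1 (adjusted p = 0.216) or tissue library 2 (adjusted p = 0.0513).

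In the goblet gate, 8 of 33 enzymes were higher and 10 lower in assembloids than in tissue (54.5%, against 46.0% of 13643 genes called, 24.5% higher and 21.5% lower). With total UMIs as the scale these were 7 and 16, the median over all genes moving by -0.53, and without tissue library 1 they were 3 and 5 and without tissue library 2 they were 4 and 5, while calls over all genes fell from 6275 to 1361 and 1634. Gstp1 was at 500 and 923 CPM in assembloids and 223 and 205 in tissue (3.35-fold, adjusted p = 0.0059), and Gstp2 was 3.14-fold higher (adjusted p = 0.0078). These 2 calls were lost without either tissue library (adjusted p = 0.0778 to 0.0932). Sult1a1 was 122-fold lower (adjusted p = 0.00022), with only 5 and 3 UMIs in assembloids. Ugt2b35 was called lower too (adjusted p = 0.00035), but its assembloid values rest on 1 and 2 UMIs and no size is given. Mgst1 was 1.95-fold lower (adjusted p = 0.0043), but not without tissue library 1 (adjusted p = 0.0606) or tissue library 2 (adjusted p = 0.0801), at the higher limit (adjusted p = 0.201) or in cells of at least 2000 UMIs (adjusted p = 0.389).

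Sult2b1 was placed differently in the groups. In assembloids it was at 36.0 and 40.8 CPM in the goblet gate and 36.5 and 50.3 in the Krt20 gate, whereas in tissue it was at 10.5 and 15.9 in the goblet gate and 106 and 108 in the Krt20 gate. In tissue the goblet gate was thus 8.16-fold below the Krt20 gate (adjusted p = 5.5e-06), and the goblet gate of assembloids was 2.95-fold above that of tissue (adjusted p = 0.0041, and 0.0575 without tissue library 1). The difference between the steps was 2.86 ± 0.34 on the log2 scale (adjusted p = 0.00097, and 0.0504 without tissue library 1).

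Between the goblet and the Krt20 gate, 4 of 35 enzymes were higher and 9 lower in the goblet gate of assembloids (37.1%, against 15.2% of all genes, 5.84% higher and 9.33% lower), and 4 were higher and 15 lower in tissue (54.3%, against 41.7%, 19.8% higher and 21.9% lower). Without tissue library 1 these were 1 and 6 in assembloids and 1 and 8 in tissue, and without tissue library 2 they were 1 and 7 and 1 and 9. Calls over all genes fell alongside, from 2264 to 1053 and 1236 in assembloids and from 6228 to 1786 and 2710 in tissue. Mgst2 was called in neither, with 186 and 264 CPM in the goblet gate and 167 and 224 in the Krt20 gate of assembloids, and 213 and 189 against 237 and 231 in tissue. Gstm1 was higher in the goblet gate, 1.76-fold in assembloids (adjusted p = 0.0031) and 2.40-fold in tissue (adjusted p = 5.4e-05). The steps of 6 enzymes (Sult2b1, Gstp2, Gstt1, Mgst3, Mgst1 and Gstp1) differed between assembloids and tissue, all towards the goblet gate in assembloids, against 10.6% of all genes (5.35% in that direction and 5.27% in the other). Without tissue library 1 no step of an enzyme was called, and without tissue library 2 that of 1 was, Sult2b1, while calls over all genes fell from 1585 to 44 and 259. By contrast, without assembloid library 1 there were 10 calls, 7 in that direction and 3 in the other. Leaving out the 5% of cells with the most UMIs, as a guard against doublets, left 3 calls, those of Mgst1, Mgst3 and Gstp1 being lost (adjusted p = 0.0802, 0.0921 and 0.113).

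**Figure D4:**
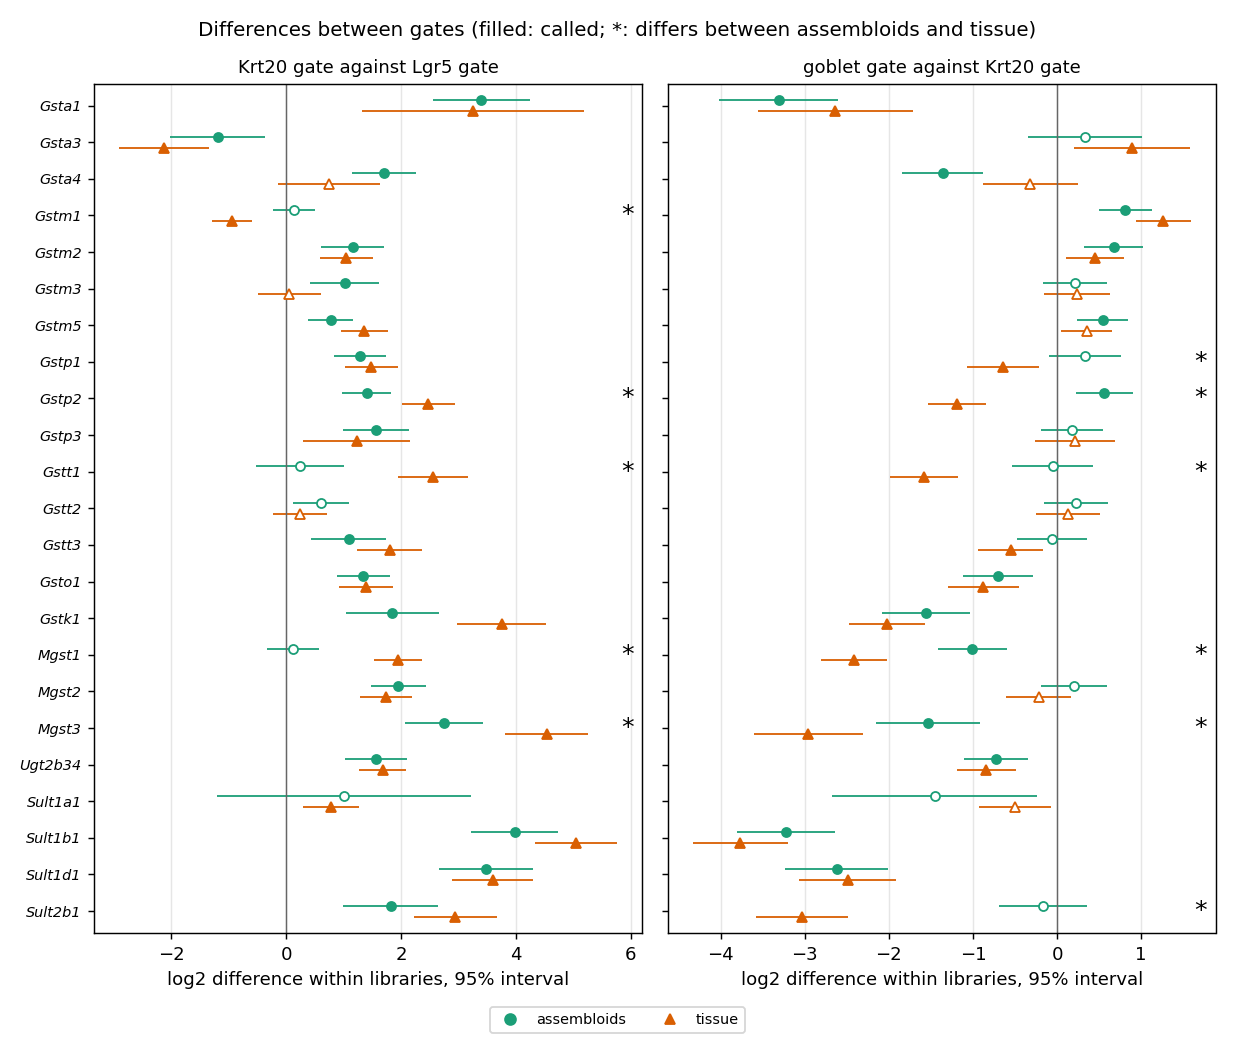
Log2 differences between gates with 95% intervals for 23 enzyme genes with a mean of at least 20 CPM in a gate (Ugt2b35, which had 0 UMIs in 1 gate of assembloids, is left out), in assembloids (green circles) and tissue (orange triangles). Filled points were called, and an asterisk marks genes whose step was called different between the groups. Sult2b1 shows the widest gap between groups in the right panel, while for Sult1d1 and Ugt2b34 the groups lie close together in both panels.

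The Lgr5 gate is the only gate in which organoids could be compared. Its 6 sums were fitted and scaled apart from those of the 3 gates above, so the same assembloid and tissue cells have other CPM values here. In it 3 of 25 enzymes were higher and 4 lower in assembloids than in tissue (28.0%, against 26.2% of 10390 genes called, 13.5% higher and 12.7% lower), and in organoids 4 were higher and 12 lower (64.0%, against 33.3%, 16.5% higher and 16.8% lower). With total UMIs as the scale, which moved the medians over all genes by -0.34 and -0.23, these were 2 and 6 in assembloids and 1 and 12 in organoids. At a gate limit of 100 CPM, 11 enzymes were called in assembloids. The organoid calls fell to 10 without organoid library 1, to 9 without organoid library 2 and to 7 without either tissue library, while those over all genes fell from 3462 to 1153, 2941, 1373 (tissue library 1) and 1607 (tissue library 2).

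Sult1a1 was at 97.7 and 102 CPM in tissue cells of this gate, 0 and 3.29 in assembloids and 1.62 and 1.35 in organoids. It was lower in organoids by -6.08 ± 0.42 on the log2 scale (adjusted p = 7.7e-13) and was called lower in assembloids too (adjusted p = 1.4e-08), where the values rest on 0 and 2 UMIs and no size is given. Sult1a1 was thus low in the Lgr5 gate of both cultures, as it was in the other gates of assembloids. Sult1b1, low in this gate in tissue with 23 and 24.8 CPM, was at 21 and 18.1 in assembloids and 0.866 and 0.474 in organoids, and was 35.5-fold lower in organoids (adjusted p = 6.8e-10). Sult1d1 was 38.5-fold lower in organoids (adjusted p = 1.3e-10), and neither gene was called between assembloids and tissue here.

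Ugt2b35 had 0 UMIs in the Lgr5 gate of both assembloid libraries and 41.0 and 37.2 CPM in tissue. Taking 3 counts over the group as the floor, it was at least 22-fold lower in assembloids, and it was 18.7-fold lower in organoids (2.51 and 1.72 CPM, adjusted p = 4.7e-09). Ugt2b34 was 3.40-fold lower in assembloids (adjusted p = 0.00068) and 2.44-fold lower in organoids (adjusted p = 0.0027, and 0.113 without tissue library 1). Mgst2 was 4.44-fold lower in organoids (adjusted p = 5.8e-06), whereas Mgst3 was called in neither culture, with 159 and 83.7 CPM in organoids against 143 and 149 in tissue. Gsta4 was higher in both cultures, 6.51-fold in assembloids (adjusted p = 1.6e-05) and 8.87-fold in organoids (adjusted p = 4.8e-07), and Gsta1 was higher in assembloids (57 and 12 UMIs) than in tissue (1 and 3 UMIs, adjusted p = 2.9e-05).

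**Figure D5:**
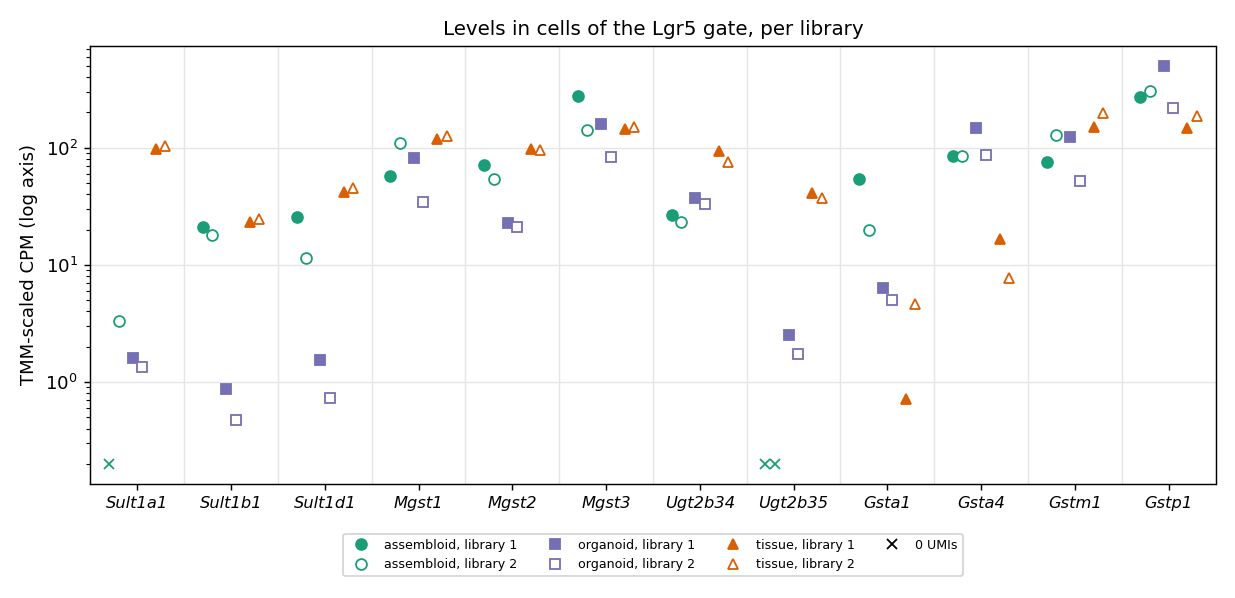
TMM-scaled CPM (log axis) of 12 enzyme genes in cells of the Lgr5 gate in each assembloid library (circles), organoid library (squares) and tissue library (triangles), filled for library 1 and open for library 2, with crosses for libraries with 0 UMIs. Sult1b1 and Sult1d1 are near 1 or below in organoids only, and Sult1a1 and Ugt2b35 are low in both cultures.

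Genes that supply or remove the conjugated groups were followed in 7 lists. The counts below stand against 50.6% of all genes called between assembloids and tissue (27.2% higher, 23.4% lower) and 47.5% between organoids and tissue (24.4% higher, 23.1% lower). Of 18 genes of glutathione synthesis and recycling, 9 were higher and 1 lower in assembloids than in tissue, and 12 higher and 3 lower in organoids, with list medians of 0.75 and 1.09 on the log2 scale. The list also holds peroxidases (Gpx1, Gpx2, Gpx4, Prdx1 and Prdx6) and the thioredoxin genes Txn1 and Txnrd1. Slc7a11, which imports cystine for glutathione synthesis, was at 29.6 and 43.2 CPM in assembloids, 16.3 and 24.9 in organoids, with tissue at 3.61 and 3.77 (log2 3.30, adjusted p = 6.5e-05 in assembloids and 2.48, adjusted p = 0.0002 in organoids). Gclm, a subunit of the first enzyme of that synthesis, was higher in both as well (log2 1.48, adjusted p = 0.009, and 1.45, adjusted p = 0.01), but not without tissue library 1 or tissue library 2 (adjusted p = 0.065 to 0.0793). Glutaredoxin, Glrx, was the 1 gene lower in assembloids and was lower in organoids too (log2 -1.97 and -2.49, adjusted p = 0.00067 and 0.00021). Gpx2, the glutathione peroxidase of the gut, was at 4242 and 2120 CPM in organoids and 430 and 494 in tissue (log2 2.78, adjusted p = 0.00061). Without tissue library 1 or tissue library 2 the list's counts in assembloids were 3 higher and 1 lower. In organoids they were 4 higher and 3 lower without tissue library 1, and 5 and 2 without tissue library 2.

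Of 10 tested genes of sulfate uptake, PAPS supply and the removal of its product or of sulfate esters, 0 were higher and 6 lower in assembloids than in tissue, and 2 higher and 5 lower in organoids, with medians of -0.96 and -0.52, beside 23.4% and 23.1% of all genes lower. The PAPS synthases Papss1 (91.0 and 101 CPM in tissue, 38.2 and 51.1 in assembloids, 41.4 and 33.5 in organoids) and Papss2 (117 and 135, 57.5 and 75.3, and 23.8 and 25.7) were lower in both cultures, Papss2 by -0.92 (adjusted p = 0.0077) and -2.34 (adjusted p = 8.5e-05). The call of Papss2 in assembloids was lost without assembloid library 1 (adjusted p = 0.0746) or tissue library 2 (adjusted p = 0.0863). The sulfate transporter Slc26a2 was at 363 and 303 CPM in tissue, 42.6 and 64.9 in assembloids and 28.2 and 39.3 in organoids (log2 -2.63 and -3.30, adjusted p = 0.00022 and 7.2e-05). The remaining genes lower in assembloids were Slc35b3, a PAPS transporter of the Golgi, Impad1, which removes a product of PAPS, and the lysosomal sulfatase Arsb, and those lower in organoids Slc35b3 and the lysosomal sulfatase Arsa. The 2 genes higher in organoids were Slc26a1, another sulfate transporter, at 0.964 and 0.785 CPM against 0.0367 and 0.0711 in tissue (adjusted p = 0.00076), and Slc35b2, another PAPS transporter, at 59.3 and 41.6 against 29.7 and 33.0 (log2 0.69, adjusted p = 0.033), a call lost with total UMIs as the scale (adjusted p = 0.174) and without organoid library 1, tissue library 1 or tissue library 2 (adjusted p = 0.153, 0.222 and 0.136). Without tissue library 2, 1 gene of the list was higher and 3 were lower in organoids.

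Of 6 genes of UDP-glucuronate supply and removal, 3 were higher and 1 lower in assembloids and 1 higher and 2 lower in organoids. The list also holds Slc35a3, a transporter of another UDP sugar. Without tissue library 1 none of the 6 was called in assembloids, without tissue library 2 there was 1 call and without assembloid library 1 there were 2. Ugdh, which makes UDP-glucuronate, was lower in organoids than in tissue (log2 -1.32, adjusted p = 0.00079). Gusb, which removes glucuronic acid again, was at 79.0 and 73.4 CPM in organoids, 26.4 and 25.3 in assembloids and 15.7 and 16.7 in tissue (log2 2.24, adjusted p = 4.1e-05 in organoids). Of 8 exporters, 4 were higher and 2 lower in assembloids and 3 higher and 3 lower in organoids. Abcg2, the exporter of sulfates at the apical membrane, was at 37.0 and 42.8 CPM in tissue, 16.6 and 14.8 in assembloids and 2.60 and 1.89 in organoids (log2 -1.34 and -4.15, adjusted p = 0.0012 and 8.1e-06), whereas Abcc4 was higher in both cultures (log2 1.87 and 1.84, adjusted p = 0.001 in each).

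Of 16 regulators, 3 were higher and 4 lower in assembloids and 5 higher and 7 lower in organoids. Leaving out tissue library 1 or tissue library 2 brought these to 1 and 2 or 2 and 2 in assembloids and to 0 and 5 or 1 and 5 in organoids. Nfe2l2, the activator of antioxidant genes, and the aryl hydrocarbon receptor Ahr were called in neither. The vitamin D receptor Vdr was at 127 and 119 CPM in tissue, 8.75 and 13.4 in assembloids and 21.4 and 21.2 in organoids (log2 -3.48 and -2.53, adjusted p = 2.8e-05 and 8.5e-05). Ppara, a fatty acid receptor, was at 20.2 and 19.2 CPM in tissue and at or below 1.31 in both cultures, and the xenobiotic receptor Nr1i2 was lower in both too (log2 -0.76 and -1.43, adjusted p = 0.011 and 0.00053). The call of Nr1i2 in assembloids was lost without assembloid library 1, tissue library 1 or tissue library 2 (adjusted p = 0.0929, 0.0665 and 0.0997). Of 10 tested targets of Nfe2l2 and Ahr, 5 were higher and 0 lower in assembloids and 5 higher and 3 lower in organoids. In assembloids 3 were called without tissue library 2, and in organoids 4 were higher and 1 lower without tissue library 1. Hmox1 (haem oxygenase) was at 74.2 and 62.6 CPM in assembloids, 11.4 and 9.58 in organoids, with tissue at 1.36 and 1.78 (log2 5.45 and 2.75, adjusted p = 9.4e-06 and 4.6e-05), while Nqo1, the quinone reductase of the same list, was not called in assembloids (log2 -0.09, adjusted p = 0.82). Of 14 related transferase-fold and membrane-associated genes outside the 4 families, 3 were higher and 1 lower in assembloids and 4 higher and 2 lower in organoids (2 higher and 0 lower in assembloids without either tissue library), among them the prostaglandin E synthase Ptges, higher in assembloids (log2 2.53, adjusted p = 0.00041).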

How the data were processed

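Single-cell mRNA was measured in 8 libraries, 2 each of assembloid, organoid and tissue epithelium and of assembloid stroma. The authors deposited raw UMI counts per gene and cell, made with Cell Ranger per the file headers (7.1.0 for epithelium, 6.0.1 for stroma, while the submitters' processing notes name version 6 and mm10). Whether introns were counted is not given in the sources used here. Depth is 36947714 to 187583982 UMIs per epithelial library.

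Cells with at least 500 genes, at most 10% mitochondrial UMIs, at least 1 UMI of 7 epithelial markers and more of these than of 13 stromal and immune markers were kept. The limits on genes and mitochondrial UMIs passed 38.7% and 25.4% of the barcodes in tissue, 89.3% and 55.1% in assembloids and 81.4% and 55.3% in organoids. In tissue, 7352 of 12137 and 12571 of 16974 barcodes had enough genes but exceeded the mitochondrial limit. Doublets were not removed, but cells in more than 1 gate were in none. Counts were summed per library, or per library and gate with at least 50 cells, and tested in R 4.3.3 with edgeR 4.0.16 by quasi-likelihood (filterByExpr, TMM, Benjamini-Hochberg, adjusted p under 0.05). Fits of whole libraries and of the Lgr5 gate held all 3 groups. Comparisons between gates had the library as a factor. With 2 libraries a group, p-values rest on the spread between libraries, for which all groups in a fit share a common estimate. A p-value therefore does not measure the spread of the compared libraries alone. The chi-square divided by the number of genes was 24.2 between the tissue libraries, 307 between those of assembloids and 401 between those of organoids. DESeq2 1.42.0 and other settings served as alternatives. Tables and figures were made in Python 3.11.15 (pandas 2.3.3, matplotlib 3.10.9). The tests were checked on simulated counts.

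Every gene with a mean of at least 10 CPM in a group is named with its values, as is one called with at least 3. The genes, gates and lists were chosen with earlier results of these data known. Positions are from GENCODE M21 (GRCm38), in which 68 of 68 genes were found by identifier, and promoters from RefSeq (GRCm38.p6). No cell annotation was used.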

Additional observations from a re-analysis of the deposited data

Results flagged for a closer look

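The first set of results was flagged because the step between gates differed between assembloids and tissue in the edgeR quasi-likelihood test of that difference, with Benjamini-Hochberg adjustment. Between the Krt20 and the Lgr5 gate, the step in assembloids minus that in tissue was -2.31 on the log2 scale for Gstt1 (adjusted p = 0.018), -1.83 for Mgst1 (0.0045), -1.79 for Mgst3 (0.029), -1.07 for Gstp2 (0.049) and 1.08 for Gstm1 (0.019). Without tissue library 1 or tissue library 2 none of these was called, while calls over all genes fell from 1169 to 0 and 301, the value of Mgst1 being -1.95 and -1.72 (adjusted p = 0.169 and 0.0777). Gstt1 was not called without assembloid library 1 or assembloid library 2 either (adjusted p = 0.059 and 0.0522), nor was Gstp2 without assembloid library 1 (adjusted p = 0.218) or in gated cells of at least 2000 UMIs (adjusted p = 0.063).

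Between the goblet and the Krt20 gate, the difference of the steps was 2.86 for Sult2b1 (adjusted p = 0.00097), 1.75 for Gstp2 (0.0012), 1.53 for Gstt1 (0.0083), 1.43 for Mgst3 (0.041), 1.41 for Mgst1 (0.0066) and 0.98 for Gstp1 (0.046). None was called without tissue library 1, where calls over all genes fell from 1585 to 44. Without tissue library 2, with 259 calls over all genes, only Sult2b1 was called (value 3.13, adjusted p = 0.0109), and Gstp2 was close (adjusted p = 0.0511). The directions of all 11 differences were the same without any 1 of the 4 libraries. These 11 were picked by their calls in the same libraries, so this is no independent check. The goblet gate of tissue held cells of 1124 and 1917 median UMIs, and the part of that depth in these values was not tested beyond the settings named in the report.

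The second set was flagged because both stromal libraries of assembloids, which no comparison uses, exceeded every epithelial library in CPM (without TMM scaling). The lower stromal value was 564 for Mgst1 (highest epithelial value 185), 116 for Gstm2 (83.5), 112 for Gstm5 (75.5) and 25.8 for Gstt1 (25.4, nearly the same). Gstm4 was as close, at 7.11 against 7.02. At low levels Sult5a1 (2.36 against 0.135) and Gstt4 (0.572 against 0.183) were also higher in stroma. The stromal libraries were captured and processed apart from the epithelial ones, and this difference was not tested.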

How the results depend on the processing

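Counts of enzymes called over whole libraries stayed within 1.5 times the reported ones under every alternative run (18 to 32 for assembloids against tissue, 20 to 30 for organoids against tissue, 17 to 23 for organoids against assembloids). Calls over all genes in the comparisons against tissue fell by more than that factor when either tissue library was left out. With 1 library left out, its partner stands alone and is assumed to vary like the other groups. The counts then ran from 10 to 22 in the Krt20 gate (19 reported), 8 to 23 in the goblet gate (18), 5 to 8 and 7 to 20 in the Lgr5 gate for assembloids and organoids against tissue (7 and 16), 7 to 16 and 9 to 21 for the goblet against the Krt20 gate in assembloids and tissue (13 and 19), and 0 to 7 and 0 to 10 for the differences between steps (5 and 6). A gate limit of 100 CPM gave 11 calls for assembloids in the Lgr5 gate, and leaving out the 5% of cells with the most UMIs gave 3 differing goblet steps. The higher limits could not be run for assembloids in the Lgr5 gate, where 1 library kept too few cells.

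Of 187 single differences called, 73 lost the call in at least 1 setting. Gsto1, not called between assembloids and tissue at -0.04, was at 0.0065 with DESeq2, 0.0035 at no more than 5% and 0.22 at no more than 20% mitochondrial UMIs (the last chosen after seeing the data), and lay between -0.17 and 0.10 without 1 library. Called results changed sign for 2 genes: in the goblet gate Gsto1 went from 0.51 (adjusted p = 0.027) to -0.017 with total UMIs, and in the goblet against the Krt20 gate of tissue Gsta3 went from 0.89 (adjusted p = 0.04) to -0.26 at higher limits, and neither was called under that setting. Between organoids and assembloids, Sult1a1 (reported -0.35) lay between -0.90 and 0.47 and Gsta4 (reported 0.34) between -0.064 and 0.69 without 1 library, neither being called. The cause was not tested. Of 124 single differences of pathway genes, 60 lost the call in at least 1 setting. Of 315 list counts, 288 stayed within 1.5 times and 27 did not.

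Replicate numbers were not used as a pairing, and the sample labels do not say whether same-numbered libraries share an animal or a run. Deviations of same-numbered libraries correlated at 0.13 (assembloids and organoids), 0.18 (assembloids and tissue) and -0.16 (organoids and tissue) over 10013 genes. With 2 libraries a group, these correlations cannot decide whether the libraries were paired. A replicate block gave 24, 25 and 19 calls over whole libraries, 21 and 19 in the Krt20 and goblet gates and 8 and 16 in the Lgr5 gate. Among single genes the block ended the calls of Gstt3 and Nqo1 in organoids against tissue (adjusted p = 0.0519 and 0.0596) and of Cbr3 in organoids against assembloids (adjusted p = 0.058).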
